A study of Mus musculus with 18 samples.

Results

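The genes described here are the cytosolic machinery that charges tRNAs and carries out protein synthesis. They are 84 of the 23228 genes in the RNA table: 64 genes whose symbols begin with Eif or Eef and a digit, without the sex-linked pair Eif2s3x and Eif2s3y, and 20 cytosolic tRNA synthetase genes. The rule uses gene symbols and no measured value, although it was set with earlier results of these data known. The symbol rule also takes in 4 genes, Eif2c1 to Eif2c4, that are older names of the Argonaute genes of RNA silencing, and 4 kinases, Eif2ak1 to Eif2ak4, that act on the initiation factor eIF2.

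A tRNA synthetase joins an amino acid to its tRNA, initiation factors bring the small ribosomal subunit and the initiator tRNA to the start codon of an mRNA, and elongation factors deliver charged tRNAs and move the ribosome along. Most of these genes are used by every cell. Acinar cells of the pancreas are known for very high rates of protein synthesis, because they make the digestive enzymes for export, and a few factors have tissue-specific paralogs, such as the elongation factor gene Eef1a2 of neurons and muscle.

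RNA was sequenced from 2 tissues of ICR mouse embryos. One sample held GFP-positive cells sorted by flow cytometry after E12.5 neural tubes were dissociated with trypsin. The other was whole pancreas at E15.5, unsorted and labelled WT. The neural tube embryos carried the 2.3Ptf1a-GFP transgene, whose GFP is driven by a 2.3 kb enhancer of Ptf1a with a beta-globin basal promoter, so the cells were selected by the activity of that enhancer or by GFP that outlasted it. The labels name 2 libraries for each tissue and the table gives 1 value per gene and tissue. There is therefore no replicate spread, no test and no error on any difference below, and every comparison is between these 2 samples only. Values are in FPKM, which counts fragments per kilobase of a transcript relative to all mapped fragments, so levels of different genes can be compared per length.

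The labelled tissues carried their defining markers. Of 11 acinar markers 9 were at least 4 times higher in pancreas, summing to 46126 FPKM against 23.7 in neural tube, where Clps and Pnlip were listed at 0. All 10 inhibitory neuron and neuronal markers found in the table were at least 4 times higher in neural tube, summing to 1684 against 25.5 FPKM, and Lbx1 was listed at 0 in pancreas. Markers of other cell types were also higher in the unsorted tissue: 7 of 7 mesenchyme markers (1232 against 39.7 FPKM), 5 of 5 endocrine (2386 against 16.1), 4 of 5 endothelial (72.3 against 6.29) and 4 of 6 macrophage markers (210 against 5.86) were at least 2 times higher in pancreas. At least 2 times higher in pancreas were also 5 of 7 red cell and 4 of 7 proliferation markers, with 2 and 1 at least 2 times higher in neural tube. Their part in the differences below was not tested. In bulk samples, fewer cells of a type and less RNA per cell cannot be told apart, and neither can the tissue and its stage, sorting, RNA extraction and possibly library preparation.

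Most members lay within 2 times between the tissues, as did most genes of the table, and few were 2 times higher in neural tube. A gene was called higher in a sample when it differed by at least 4 or at least 2 times on the scale log2(FPKM + 1), and its higher value reached 5 FPKM, and similar when both values reached 5 FPKM and lay within 2 times. Of the 84 members 80 reached 5 FPKM in either sample and 75 in both. At 4 times, 4 members (5% of 80) were higher in pancreas, where 11.9% of all genes were, and 2 (2.5%) were higher in neural tube, where 10.3% of all genes were. At 2 times, 18 members (22.5%) were higher in pancreas against 25.0% of all genes, a share near the background, and 5 (6.25%) were higher in neural tube against 23.2% of all genes. Another 56 of the 75 (74.7%) were similar, against 68.4% of all genes, which is also near the background. The remaining member at 5 FPKM, Eif2c2, fell in none of these classes, and Eif2c3, Eif4e1b, Eif4e3 and Eif5a2 stayed below 5 FPKM in both tissues.

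**Figure D1:**
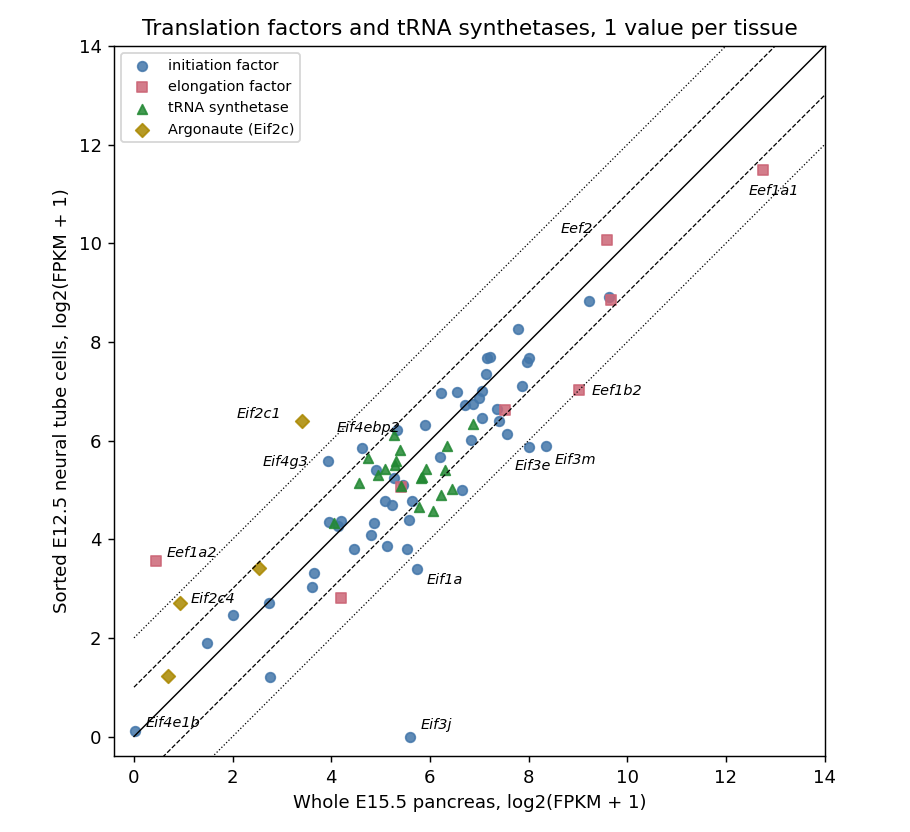
Level of each of the 84 members in whole pancreas (x axis) and in sorted neural tube cells (y axis), both as log2(FPKM + 1), 1 point per gene with shape and colour by kind. The solid line marks equal values, dashed lines a difference of 2 times and dotted lines 4 times; Eif2c1 and Eef1a2 lie above the upper dotted line, and Eif3m, Eif3e, Eif1a and Eif3j lie below the lower one.

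The median difference, neural tube minus pancreas, was -0.35 in log2 over the 83 members that reached 1 FPKM in at least 1 sample, beside -0.07 over all 14303 such genes. It was -0.39 for the synthetases and -0.35 for the translation factors. The sign of this median depends on how the samples are scaled. The FPKM of all genes summed to 704172 in pancreas and 455927 in neural tube. When both sums were set equal, the median of the members became 0.25 while that of all genes became 0.48. Against all genes, the members stood 0.28 lower as deposited and 0.22 lower with equal totals. This was not particular to the members: a list of 16 housekeeping genes, also used for a rescaling, had a median of -0.38 as deposited. At equal totals, 7 of 80 members instead of 18 were at least 2 times higher in pancreas, where 15.0% of all genes were. Toward neural tube 19 of the 80 instead of 5 passed 2 times, where 39.2% of all genes did. Of the 23 members called at 2 times, 7 toward pancreas and 3 toward neural tube kept their call in all 8 alternatives that change the scale, the pseudocount or the GC content correction. They are Eif3m, Eif3e, Eif3j, Eif1a, Eef1b2, Eif2a and Eif2s2, and Eef1a2, Eif2c1 and Eif4g3. The 5 rescalings shift all genes nearly alike, by at most 0.63 toward neural tube and 0.07 toward pancreas. Keeping a call under them therefore mostly restates the size of the difference, and is easier toward neural tube. Eif3j was listed at 0 in neural tube, which can be a failed estimate, and the reads of Eif1a may be divided unevenly with a close copy. None of the alternatives addresses these limits.

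**Figure D2:**
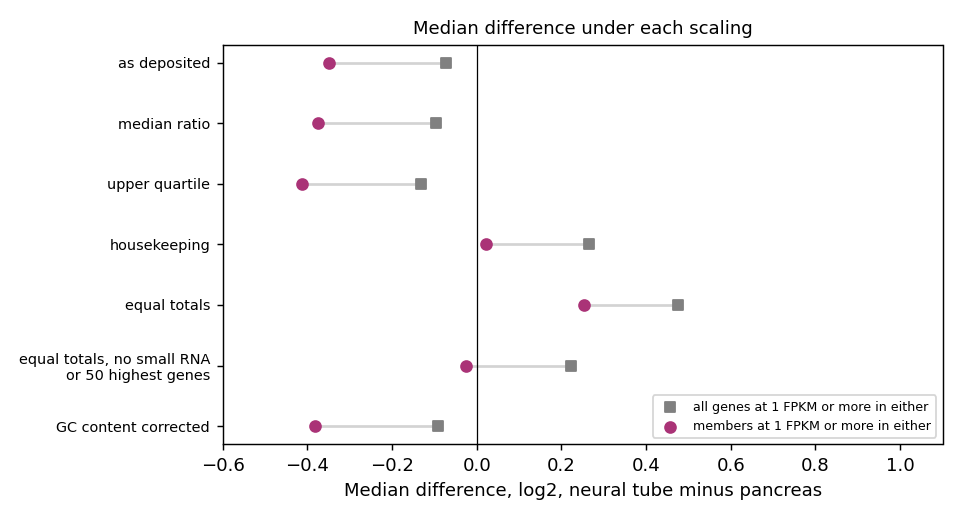
Median difference in log2, neural tube minus pancreas, of the members (circles) and of all genes (squares), both for genes reaching 1 FPKM in at least 1 sample, as deposited and under 6 other treatments of the values. The members lie to the left of all genes in each row, while the side of 0 on which they lie changes: -0.35 as deposited and 0.25 with equal totals.

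The cytosolic tRNA synthetases were all expressed in both tissues, from 19.0 (Cars) to 79.9 FPKM (Kars) in neural tube and from 15.53 (Cars) to 116 FPKM (Kars) in pancreas. Of the 20 genes 16 (80%) were similar, against 68.4% of all genes. By the 2 times rule 4 (20%) were higher in pancreas, against 25.0% of all genes, and 0 in neural tube, against 23.2%. The 4 were Farsb, Dars, Rars and Lars. Farsb, which encodes the beta subunit of phenylalanyl-tRNA synthetase (chromosome 1, 78414533 to 78485434, mm9), was at 22.7 FPKM in neural tube cells and 65.9 in pancreas, a difference of -1.50. Dars, the aspartyl enzyme, was at 31.2 and 86.1 FPKM (-1.44). Rars, the arginyl enzyme, was at 28.6 and 73.6 FPKM (-1.33). Lars, the leucyl enzyme, was the weakest of the 4 at 24.3 and 53.6 FPKM (-1.11), and lost its call in 4 of 8 alternatives. With equal totals none of the 4 kept the call, and Farsb lost it in that alternative only.

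At the other end of the list, 9 synthetases were higher in neural tube by less than 2 times. Aars, the alanyl enzyme, was at 48.8 FPKM in neural tube cells and 25.9 in pancreas (0.89). Vars, the valyl enzyme, was at 68.1 and 37.5 FPKM (0.84). Yars, the tyrosyl enzyme, was at 34.3 and 22.6 FPKM (0.58). The same side held Sars, the seryl enzyme, at 55.1 and 41.2 FPKM, Iars, the isoleucyl enzyme, at 38.3 and 29.7, and Mars, the methionyl enzyme, at 41.96 and 33.2. Farsa, the phenylalanyl alpha subunit, was at 47.2 and 38.6 FPKM, Cars, the cysteinyl enzyme, at 19.0 and 15.53, and Wars, the tryptophanyl enzyme, at 44.3 and 38.2. On the pancreas side, with no call, Tars (threonyl) was at 32.9 and 41.5 FPKM, Gars (glycyl) at 58.4 and 80.1, Qars (glutaminyl) at 42.0 and 59.8, and Kars (lysyl) at 79.9 and 116. Hars (histidyl) was at 37.3 and 56.3, Eprs, the fused glutamyl and prolyl enzyme, at 36.7 and 55.4, and Nars (asparaginyl) at 41.1 and 78.4 FPKM. The family thus divided into 9 genes above and 11 below equal values, a division that became 15 and 5 with equal totals. The range from lowest to highest member was 4.21 times in neural tube and 7.49 times in pancreas.

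**Figure D3:**
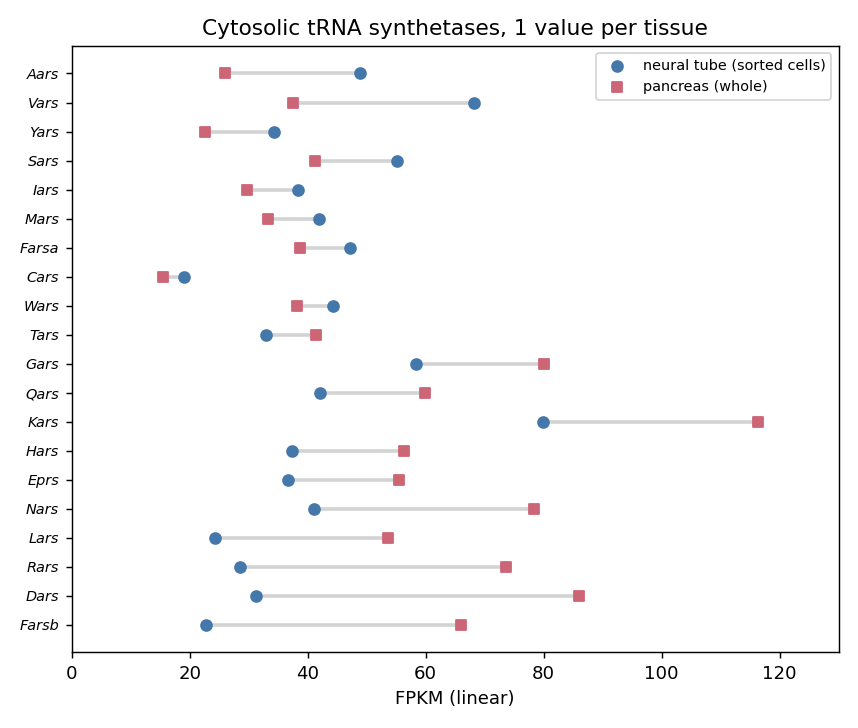
FPKM of the 20 cytosolic tRNA synthetase genes in sorted neural tube cells (circles) and whole pancreas (squares), on a linear axis, 1 value per tissue, ordered by the difference. Aars and Vars at the top are higher in neural tube (48.8 against 25.9 and 68.1 against 37.5 FPKM), and Farsb, Dars and Rars at the bottom show the widest gaps toward pancreas.

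The subunits of phenylalanyl-tRNA synthetase stood in different proportions in the tissues. Farsa and Farsb encode the alpha and beta subunits of a single enzyme, and Farsa stood at 47.2 FPKM in neural tube cells and 38.6 in pancreas, opposite in direction to Farsb. The Farsa level was 2.08 times that of Farsb in neural tube and 0.586 times in pancreas, a ratio that no rescaling of the samples can change. The multisynthetase complex is a cytosolic assembly of 8 synthetase proteins around the scaffold proteins AIMP1, AIMP2 and AIMP3. Of its 11 genes 9 had lower values in neural tube and 2, Iars and Mars, higher ones, and with equal totals 3 of its 8 synthetase genes had lower values and 5 higher ones. Relative to the median of the complex, the differences ran from -0.90 for Dars to 0.89 for Iars. The scaffold gene Aimp1 was at 38.5 and 89.5 FPKM (-1.20), close to Rars and Lars, while Aimp2 was at 45.2 and 47.2 FPKM (-0.06). Eef1e1, which encodes AIMP3, was at 32.3 and 41.4 FPKM (-0.35).

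Several synthetase genes are known targets of ATF4, the transcription factor of the amino acid and stress response, which binds with C/EBP partners to an element whose core is TGATGNAA. The 300-base promoter windows of RefSeq (GRCm38.p6, 250 bases before to 50 after the annotated start) held a window for 63 of the 84 members and for 13 of the 20 synthetases. Cars, Hars, Lars, Nars, Rars, Vars and Wars had none in the table. The core, searched on both strands, was found in 5 of the 13 synthetase promoters (38.5%), in 1 of 66 promoters of the translation factors (1.52%, that of Eef2k), and in 3.97% of all 32851 promoters. The 30-base windows around the match in Gars, Tars, Yars and Iars, 4 of the 5 genes with a match, are shown as examples of the element in its surroundings. They run 5′ to 3′ on the strand of the gene, with the match in capitals, which reads TTNCATCA where the core lies on the opposite strand.
Gars, chr6:55037960-55037989, plus strand, match 30 bases before the start: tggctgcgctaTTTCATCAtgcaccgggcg
Tars, chr15:11399655-11399684, minus strand, match 15 bases before the start: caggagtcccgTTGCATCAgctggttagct
Yars, chr4:129189895-129189924, plus strand, match 3 bases after the start: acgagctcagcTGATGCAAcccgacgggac
Iars, chr13:49682126-49682155, plus strand, match 7 bases after the start: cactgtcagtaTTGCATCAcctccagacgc

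The differences of the 5 genes with a match ran from -0.45 (Gars) and -0.32 (Tars) to 0.36 (Iars), 0.58 (Yars) and 0.89 (Aars). Those of the 8 without one ran from -1.50 (Farsb) and -1.44 (Dars) to 0.33 (Mars) and 0.41 (Sars), so the ranges overlap. For the synthetases, a match is a string of letters and not a shown binding site. Atf4 itself, chosen for mention with its values known, was at 74.6 FPKM in the sorted cells and 97.5 in pancreas (-0.38).

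GC content of the transcript moved with the difference. Across the 20 synthetases, Pearson's r between the difference and the GC content of the longest annotated coding transcript was 0.85 and Spearman's rho 0.82. Over the 79 members at 1 FPKM or more in both samples r was 0.55 and rho 0.56, and over 10491 such genes of the whole table r was 0.28 and rho 0.31. In the same way r was 0.59 for cytosolic ribosomal protein genes, 0.58 for mitochondrial ones and 0.60 for the proteasome. Transcript length moved with the difference too, with r of 0.57 and rho of 0.61 for the synthetases. For length r was 0.30 and rho 0.16 over the 79 members, and 0.23 and 0.26 over the 10491 genes. These are correlations across genes measured in the same 2 samples, which are not independent replicates, and they are given as a description. The 18 members higher in pancreas had a median GC content of 43.7% (39.7% to 50.8%), against 51.1% for the 56 similar members and 48.6% for all genes higher in pancreas by 2 times. The part of GC content in the differences between the tissues was not tested beyond the correction given below, and that of length was not tested. The labels do not settle whether the libraries of both tissues were made with the same kit.

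The contrast is visible in the coding sequence. The central 90 coding bases of 3 synthetases from the GENCODE M1 transcripts (NCBIM37, the assembly also called mm9) are shown to let the base composition be seen, 5′ to 3′ in coding orientation, with G and C in capitals.
Farsb: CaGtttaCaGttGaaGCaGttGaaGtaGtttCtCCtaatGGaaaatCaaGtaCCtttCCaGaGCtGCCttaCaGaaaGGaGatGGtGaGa
Farsa: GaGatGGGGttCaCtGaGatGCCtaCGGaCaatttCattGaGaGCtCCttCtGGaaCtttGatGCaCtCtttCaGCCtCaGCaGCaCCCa
Vars: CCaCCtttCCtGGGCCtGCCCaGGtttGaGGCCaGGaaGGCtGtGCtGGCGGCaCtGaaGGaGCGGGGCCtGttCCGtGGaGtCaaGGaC

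These stretches hold 37, 45 and 59 letters G or C of 90. Over the whole coding sequence, GC content was 45.2% in Farsb, the synthetase gene with the most negative difference, and 57.0% in Farsa and 60.1% in Vars, both higher in neural tube. At the third codon position it was 46.9% against 70.3% and 68.2%. In the longest transcript it was 45.2% in Farsb, 49.4% in Farsa and 60.9% in Vars, so Farsa stood closer to Farsb there. With coding GC content in place of that of the transcript, r over the 20 synthetases was 0.83.

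When the median difference of all genes of like GC content was subtracted, an alternative chosen after the values were seen, Farsb stayed at -1.28 and Rars at -1.16, Dars went to -0.99 and Lars to -0.92, and Vars moved from 0.84 to -0.20. The correlation with GC content among the synthetases was then 0.64. Of the 18 members at least 2 times higher in pancreas 12 kept that call, and 14 members had it in all, as did 21.9% of all genes.

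**Figure D4:**
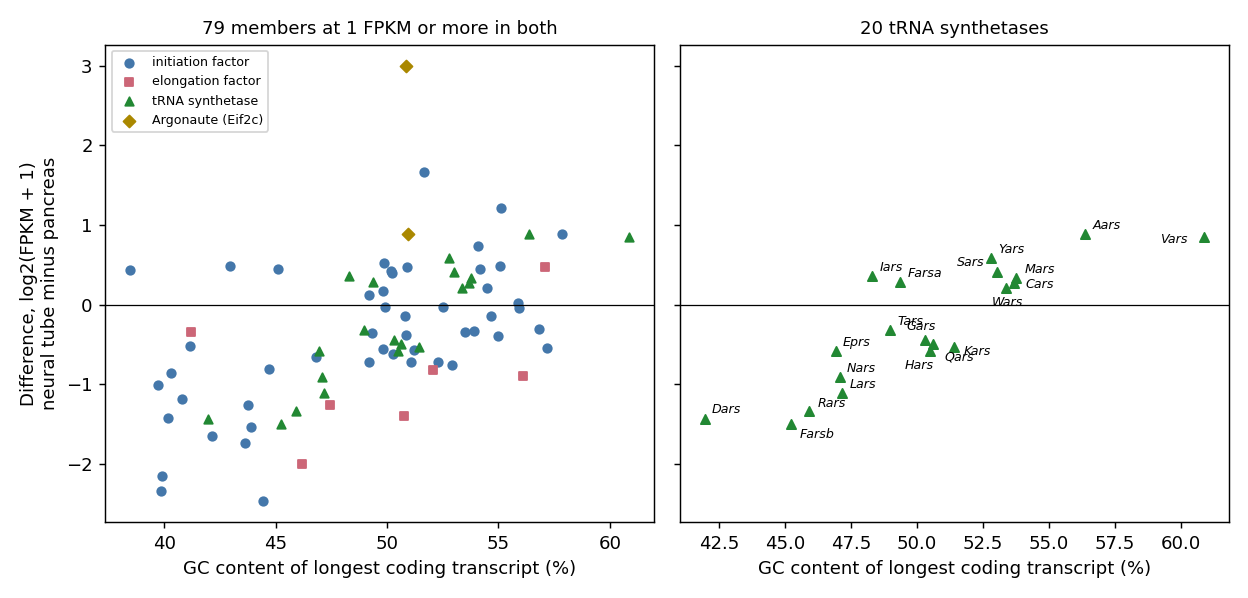
Difference in log2(FPKM + 1), neural tube minus pancreas (y axis, shared), against the GC content of the longest coding transcript in percent (x axis), for the 79 members at 1 FPKM or more in both samples (left, shape and colour by kind) and for the 20 tRNA synthetases (right, each named). Genes of low GC content tend to lie lower, in the right panel from Dars and Farsb at the lower left to Aars and Vars at the upper right. Exceptions in the left panel include Eif5a2 (38.5%, 0.43) and Eif4g2 (42.9%, 0.48).

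Initiation begins with the choice of the start codon, which eIF1 and eIF1A control. Eif1 was at 305 FPKM in neural tube cells and 220 in pancreas, and its paralog Eif1b at 78.4 and 58.4. The ratio between them was 3.89 and 3.76, nearly the same in both tissues. The genes for eIF1A went toward pancreas. Eif1a was at 9.51 and 52.5 FPKM (5.52 times, difference -2.35) and Eif1ax at 83.4 and 169 (2.02 times, -1.01). These eIF1A genes are close copies whose reads may be divided unevenly, so their separate values are uncertain, and Eif1ax lost its call in 5 of the 8 alternatives. Eif1ad, a gene with an eIF1A-like domain, was at 19.5 and 17.3 FPKM.

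**Figure D5:**
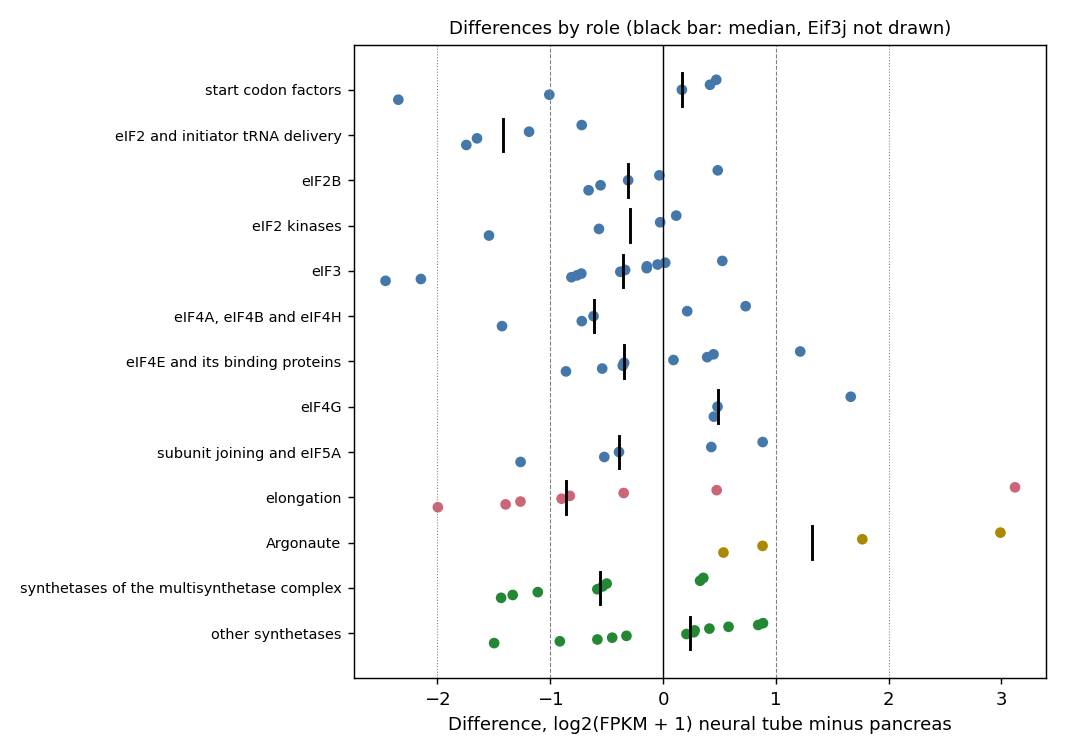
Difference of each member in log2(FPKM + 1), neural tube minus pancreas, by role, 1 point per gene, with a black bar at the median of members reaching 1 FPKM in at least 1 sample, the solid line at 0, dashed lines at 2 times and dotted lines at 4 times. Eif3j, listed at 0 in neural tube, is not drawn and is left out of the eIF3 bar. All 4 eIF2 and initiator tRNA genes lie on the pancreas side, and all eIF4G and Argonaute genes on the neural tube side.

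eIF2 carries the initiator tRNA. Of its 4 genes, counted with those of related tRNA delivery, 3 (75%) passed 2 times toward pancreas, against 25.0% of all genes. Eif2s1, the alpha subunit that stress kinases phosphorylate, was at 19.8 FPKM in neural tube cells and 46.5 in pancreas (-1.19). Eif2s2, the beta subunit, was at 31.0 and 99.3 FPKM (-1.65). Eif2a and Eif2d can bring tRNA to the ribosome without eIF2. Eif2a, on chromosome 3 from base 58329743 to 58361423 (mm9), stood at 12.9 and 45.7 FPKM (-1.74), and Eif2d at 15.9 and 26.8 (-0.72). The group median was -1.42, and all 4 differences stayed negative in all 8 alternatives. Of these only the GC content correction could have changed a sign, since no rescaling raises a difference by more than 0.63. With equal totals, housekeeping scaling, equal totals computed without small RNA and the 50 highest genes or the GC content correction, Eif2s1 fell below the threshold.

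The recycling factor of eIF2 did not share this. eIF2B, the exchange factor whose 5 subunits are the site of vanishing white matter disease, had 5 of 5 genes similar, where 68.4% of all genes were. Its median was -0.31, which turned to 0.30 with equal totals and 0.07 with housekeeping scaling. With equal totals computed without small RNA and the 50 highest genes the median was 0.02. The eIF2B genes lay between 13.0 (Eif2b3) and 41.3 FPKM (Eif2b2) in neural tube and between 21.2 (Eif2b3) and 37.4 (Eif2b5) in pancreas. Eif2b2 was at 41.3 and 29.2 FPKM (0.49), the 1 subunit with the higher value in neural tube as deposited. Eif2b1 was at 19.0 and 28.4 FPKM, Eif2b4 at 26.3 and 32.8, and Eif2b5 at 36.6 and 37.4.

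Of the 4 kinases that phosphorylate eIF2, 1 (25%) was at least 2 times higher in pancreas, the same share as among all genes (25.0%). Eif2ak2, the double-stranded RNA sensor PKR, which interferon induces, was at 1.32 FPKM in neural tube cells and 5.75 in pancreas (4.37 times, -1.54), a call lost with a pseudocount of 5 FPKM and with equal totals. Macrophage markers, as given above, were also higher in pancreas, and their part in this difference was not tested. Eif2ak3, the ER stress sensor PERK, was at 7.22 and 11.2 FPKM (-0.57). Eif2ak4, the amino acid sensor GCN2, was at 5.53 and 5.64 FPKM, and Eif2ak1, the heme-regulated kinase HRI, at 18.2 and 16.7.

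eIF3 is the large scaffold that holds the small subunit ready for the mRNA. Of its 12 genes at 5 FPKM in both samples 10 (83.3%) were similar, against 68.4% of all genes. Of all 13 genes 3 (23.1%) were at least 4 times higher in pancreas, against 11.9% of all genes. Eif3m, on chromosome 2 from base 104839813 to 104857237 (mm9), stood at 58.4 FPKM in neural tube cells and 326 in pancreas (5.58 times, -2.46). Eif3e, on chromosome 15 from base 43081586 to 43114282 (mm9), stood at 57.5 and 258 FPKM (4.49 times, -2.15). These genes are the lowest of the 12 detected subunits in neural tube and the highest in pancreas: Eif3m ranked 11 of 12 in neural tube and 1 in pancreas, and Eif3e ranked 12 and 2. The other called subunit, Eif3j, was listed at 0 in neural tube and at 47.1 FPKM in pancreas. A value of exactly 0 can be a failed estimate, RefSeq lists a close copy under a separate symbol, and no fold is given. Eif3e and the helicase gene Eif4a1 have processed copies elsewhere in the genome that could take or lend reads.

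The remaining 10 eIF3 genes kept within 2 times. Eif3k and Eif3f were the highest in neural tube at 204 and 203 FPKM, and stood at 258 and 141 in pancreas. Eif3f thus differed by 0.53 toward neural tube, and Eif3b, at 105 and 103 FPKM, by 0.02. Eif3a, the largest subunit, was at 63.7 and 113 FPKM (-0.81), Eif3i at 137 and 233 (-0.76) and Eif3l at 98.8 and 164 (-0.72). Eif3h was at 191 and 249 FPKM (-0.38), and Eif3c, Eif3d and Eif3g lay between -0.14 and -0.05. Relative to the median of the 12 detected subunits, Eif3m was at -2.10 and Eif3e at -1.79, and the others between -0.45 and 0.88, a comparison within the complex in which a rescaling of the samples cancels. Eif3e also had the lowest coding GC content of the 12, at 41.2%, and Eif3m was at 44.2%. Across the 12 the difference followed coding GC content with r of 0.90 and rho of 0.85. The relation was weaker with GC content of the transcript (r 0.77, rho 0.60) and of the third codon position (r 0.63, rho 0.37). With the GC content correction Eif3m stayed at -2.14 and Eif3e at -1.52.

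The cap-binding complex eIF4F brings the mRNA. Among its helicase genes, Eif4a1 had the highest FPKM of the initiation factor genes in both tissues, at 479 FPKM in neural tube cells and 790 in pancreas (-0.72). Eif4a2, its close paralog, was at 69.5 and 189 FPKM (-1.43), so the Eif4a1 level was 6.89 times that of Eif4a2 in neural tube and 4.19 times in pancreas. Eif4a3, a paralog that works in the exon junction complex and not in initiation, was at 123 and 73.6 FPKM (0.73). The cofactor genes Eif4b, at 86.3 and 133 FPKM, and Eif4h, at 162 and 139, were similar.

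The 3 eIF4G scaffold genes all had higher values in neural tube, with a median of 0.48, and did so in all 8 alternatives. Only the GC content correction could have changed this. A pseudocount cannot change a sign, and no rescaling lowers a difference by more than 0.07. Eif4g3 was at 47.2 FPKM in neural tube cells and 14.2 in pancreas (1.67), the only eIF4G call. Eif4g1 was at 126 and 92.1 FPKM (0.45). Eif4g2, a relative that lacks the eIF4E site, was at 207 and 148 (0.48). Over the alternatives the difference of Eif4g3 ran from 1.44 to 2.26.

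The cap-binding protein and its inhibitors differed from each other. Eif4e was at 26.5 FPKM in neural tube cells and 48.9 in pancreas (-0.86). Eif4ebp2, the 4E-BP inhibitor known from brain, was at 56.5 and 23.7 FPKM (1.22), whereas Eif4ebp1 was at 24.9 and 36.7 (-0.54) and Eif4ebp3 at 8.90 and 11.6 (-0.34). Eif4ebp2 thus exceeded Eif4ebp1 by 2.26 times in neural tube and stood at 0.647 times it in pancreas. The level of Eif4e was 0.469 times that of Eif4ebp2 in neural tube and 2.06 times in pancreas. Eif4ebp2 lost its call in 1 of the 8 alternatives, the GC content correction, at 0.94, and in the same alternative Eif4e moved to -0.23. Eif4e2, a cap-binding protein that represses translation, was at 33.2 and 42.8 FPKM, Eif4enif1, the eIF4E transporter, at 19.4 and 14.5, and Eif4e3 at 4.51 and 3.04. Eif4e1b, known from oocytes, was at 0.0804 and 0.0129 FPKM. Both values are below about 3 fragments on a 1 kb transcript, which corresponds to 0.122 FPKM in neural tube cells and 0.0728 in pancreas, and no fold is given.

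Joining of the ribosomal subunits was represented by Eif5, Eif5b and Eif6. Eif5b, the GTPase of subunit joining, was at 13.5 FPKM in neural tube cells and 33.8 in pancreas (-1.26). Eif5, which triggers GTP hydrolysis on eIF2, was at 50.1 and 72.3 FPKM (-0.52). Eif6, which keeps the large subunit from joining early, went the other way at 73.0 and 39.1 FPKM (0.88), below the threshold. Eif5a, whose hypusine-bearing protein helps the ribosome through difficult peptide bonds, was abundant and similar at 454 and 596 FPKM, and its paralog Eif5a2 was at 2.74 and 1.78.

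The elongation factors took the largest share of the members' FPKM, 1.02% of all FPKM in neural tube cells and 1.31% in pancreas, out of 2.17% and 2.27% for all 84 members. Eef1a1, which delivers charged tRNAs, ranked 7 among all genes in each tissue. It was at 2862 FPKM in neural tube cells and 6875 in pancreas (2.40 times, -1.26), although its many near-identical copies in the genome make the value uncertain and the call was lost with the 3 rescalings that move the median of all genes by more than 0.1. Eef2, the translocase, went slightly the other way, at 1072 and 771 FPKM (0.48). The Eef1a1 level was therefore 2.67 times that of Eef2 in neural tube and 8.92 times in pancreas.

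The exchange factor of eEF1A followed Eef1a1. Eef1b2, on chromosome 1 from base 63223399 to 63227060 (mm9), stood at 130 FPKM in neural tube cells and 520 in pancreas (4.01 times without a pseudocount, difference -1.997), just short of the 4 times threshold. Eef1d was at 97.8 and 183 FPKM (-0.90) and Eef1g at 460 and 816 (-0.83), so all 3 subunit genes had higher values in pancreas. That held in all 8 alternatives, of which only the GC content correction could have changed a sign. Of the 3 genes 1 passed 2 times, where 25.0% of all genes did. Eef2k, the kinase that inhibits eEF2, was at 6.01 and 17.4 FPKM (-1.40).

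Eef1a2 and Eif2c1 showed the 2 largest differences toward neural tube among the members as deposited. For Eef1a2 it was 1.56 with a pseudocount of 5 FPKM and 2.07 with the GC content correction. This paralog replaces Eef1a1 in mature neurons and muscle, and it lies on chromosome 2 at 180882358 to 180891719. It was at 10.8 FPKM in neural tube cells and 0.355 in pancreas (3.12). Its level in the sorted cells was still far below that of Eef1a1, which was 265 times higher there and 19344 times higher in pancreas.

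The Argonaute genes, which bind small RNAs and repress mRNAs, all had higher values in neural tube. Of the 3 that reached 5 FPKM in either sample 2 (66.7%) were at least 2 times higher in neural tube, against 23.2% of all genes. The direction held in all 8 alternatives, of which only the GC content correction could have changed it. Eif2c1, now Ago1, was at 83.1 FPKM in neural tube cells and 9.56 in pancreas (8.69 times, 2.99). Eif2c4, now Ago4, was at 5.52 and 0.914 FPKM (1.77), a call lost with a pseudocount of 5 FPKM (0.83). Eif2c3, now Ago3, was at 1.35 and 0.619 FPKM (0.54). These genes are neighbours on the minus strand of chromosome 4 (mm9), Eif2c3 at 126008948 to 126106800, Eif2c1 at 126112256 to 126145878 and Eif2c4 at 126166785 to 126210716. Eif2c2, now Ago2, on chromosome 15, was at 9.73 and 4.82 FPKM (0.88). Eif2c1 was thus 8.54 times Eif2c2 in neural tube and 1.98 times in pancreas.

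The starts of many mRNAs for ribosomal proteins and elongation factors carry a terminal oligopyrimidine tract through which mTOR controls their translation. With a C at the annotated start followed by at least 4 pyrimidines as the measure, 1 of 79 member promoters, that of Eif3f, matched, and 2.51% of all promoters did. For the other members among the 63 with a window, this says only that these letters do not stand at the annotated starts. The 21 members without a window were not searched.

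In the lists of termination genes, other initiation genes, mitochondrial synthetases and mitochondrial factors, the shares called at 2 times were at or below those of all genes (25.0% toward pancreas and 23.2% toward neural tube). Of 6 termination, recycling and rescue genes 4 were similar and 1, the ribosome recycling factor Abce1 at 21.6 and 75.1 FPKM, was at least 2 times higher in pancreas, while Etf1, the release factor, was at 31.2 and 58.1. Of 11 other initiation and poly(A)-binding genes 10 were similar, including Pabpc1 at 230 and 254 FPKM and Paip2 at 88.4 and 103, and 1, Mcts1, at 18.8 and 43.7, was higher in pancreas. Mitochondrial synthetases were at lower levels than cytosolic ones, with medians of 8.70 and 9.31 FPKM against 39.7 and 47.5. Of their 17 genes 10 were similar, 1 was at least 2 times higher in neural tube, Aars2 at 13.2 and 4.06, and 2 in pancreas, Iars2 at 10.1 and 22.6 and Rars2 at 10.0 and 22.4. Lars2 was the highest at 44.8 and 75.7 FPKM. Mcts1, Aars2 and Rars2 are named with their values known. All 7 mitochondrial translation factors at 5 FPKM in both samples were similar, including Tufm at 74.9 and 62.1 FPKM and Tsfm at 18.97 and 15.498.

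A list of 12 genes of mTOR signaling, S6 kinases and the eIF4E kinases Mknk1 and Mknk2 had a median of 0.76. Of the 12, 5 (41.7%) were at least 2 times higher in neural tube, against 23.2% of all genes. Toward pancreas 2 (16.7%) passed 2 times, against 25.0%. The 5, named with their values known, were Mtor at 17.4 and 4.86 FPKM (1.65), Akt1s1 at 39.6 and 16.8 (1.19), Rptor at 12.2 and 5.19 (1.09), Tsc2 at 25.3 and 11.8 (1.04) and Rps6kb2 at 23.0 and 10.8 (1.02). With upper quartile scaling 3 of the 12 passed 2 times toward neural tube (21.7% of all genes did), a share near the background, and with equal totals 9 did (39.2% of all genes). The 2 toward pancreas were Rheb, the activator of mTOR, at 26.7 and 61.7 FPKM, and Mknk1 at 6.26 and 40.3 (-2.51), while its relative Mknk2 was at 35.7 and 22.5. Rps6kb1, the paralog of Rps6kb2, was similar at 9.93 and 12.9 FPKM (-0.35).

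The integrated stress response, which works through phosphorylation of eIF2, had 21 genes in the table, of which 16 reached 5 FPKM in either sample. At 2 times 4 of the 16 (25%) were higher in pancreas, the same share as among all genes (25.0%), and 0 were higher in neural tube, against 23.2% of all genes. The median was -0.34. Asns, the asparagine synthetase, was at 10.1 FPKM in neural tube cells and 152 in pancreas (-3.79). Nupr1 was at 0.316 and 726 (-9.11), and Phgdh, the entry enzyme of serine synthesis, at 85.9 and 287 (-1.73). The fourth was Psph, a later enzyme of serine synthesis, at 8.71 and 25.2 (-1.43), named with its values known. The other 17 genes lay between -0.89 and 1.18.

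Among other gene groups used by most cells, the cytosolic ribosome had the largest share of genes higher in pancreas. At 2 times, 22.2% of 36 proteasome genes, 26.3% of 76 mitochondrial ribosomal protein genes and 59.3% of 86 cytosolic ribosomal protein genes were higher in pancreas, beside 22.5% of the members and 25.0% of all genes. The shares of the members, the proteasome and the mitochondrial ribosome lay near that of all genes. Higher in neural tube were 0% of the proteasome, 1.32% of the mitochondrial and 3.49% of the cytosolic ribosomal protein genes, beside 6.25% of the members and 23.2% of all genes. The medians were -0.53 for the proteasome, -0.56 for the mitochondrial and -1.26 for the cytosolic ribosomal proteins, beside -0.35. These are descriptions of 2 samples, and the differences between the groups were not tested.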

How the data were processed

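FPKM values for 23228 genes, 1 per gene and tissue, were taken as the authors deposited them, and both value columns were used. The submitters' processing notes list Cuffdiff (2.0.2), TopHat2 (2.0.4), TopHat and CASAVA, and build mm9, with no role or order. For the gene annotation and any filter, the sources used here give nothing. Sorted cells were extracted with a column kit and pancreas with Trizol, per the labels' protocols, which name an mRNA-seq library kit of Illumina for both tissues and a TruSeq kit also for pancreas. The other 16 of 18 samples, of chromatin, are not analysed here.

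Differences were log2(FPKM + 1), neural tube minus pancreas, a scale that understates those of low genes. Calls needed 2 or 4 times and 5 FPKM in the higher sample, and medians used genes that reached 1 FPKM in at least 1 sample. Folds given in times had no pseudocount. Gene positions came from GENCODE M1 on NCBIM37, where 83 of 84 members had a single gene, and promoters from RefSeq on GRCm38.p6. Some sequences of the members are not reported here. The depth as counts is unknown. From the spacing of low values, 3 fragments on 1 kb of transcript would be roughly 0.122 FPKM for neural tube and 0.0728 for pancreas.

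Every member was reported, with values in full for those past 2 times, the synthetases and the 2 highest of each role. From the lists of termination, other initiation, mTOR, integrated stress response and mitochondrial synthetase and factor genes, those past 4 times and the 2 of highest mean were named. Genes of the housekeeping, proteasome and ribosomal protein lists were not named, and those of the marker lists mostly not. The members, lists, thresholds and alternatives were chosen with earlier results of these data known. As alternatives, the pseudocount was set to 0.1 or 5 FPKM, the filter to none or 10 FPKM, and 5 rescalings and other thresholds were tried and, after the values were seen, a GC content correction in 20 bins and removal of Eif3j. Python 3.11.15, pandas 2.3.3, numpy 2.4.6, scipy 1.17.1 and matplotlib 3.10.9 were used.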

Additional observations from a re-analysis of the deposited data

How the results depend on the processing

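Of 96 summary values under the alternatives 77 kept their sign and lay within 1.5 times of the reported value, 14 moved and 5 changed sign. All 5 sign changes were of medians. With equal totals the median became 0.25 for all members, 0.23 for the synthetases and 0.25 for the translation factors, and with housekeeping scaling 0.022 for all members and 0.022 for the translation factors. These rescalings also move the median of all genes, by 0.55 and 0.34, and equal totals without small RNA and the 50 highest genes by 0.30. With equal totals 1 member was higher in pancreas and 4 in neural tube at 4 times, and 7 and 19 at 2 times. Of all genes, 8.21% and 16.5% then passed 4 times, and 15.0% and 39.2% passed 2 times. With housekeeping scaling 2 and 4 members passed 4 times, beside 9.40% and 13.9% of all genes. In neural tube 10 members were then higher at 2 times, beside 32.5% of all genes. With equal totals without small RNA and the 50 highest genes 10 members were too, beside 31.2% of all genes. A pseudocount of 5 FPKM left 1 neural tube call at 4 times, beside 4.77% of all genes. A threshold of 8 times left 1 in each direction, beside 6.08% of all genes toward pancreas and 5.08% toward neural tube. Without the Argonaute genes and eIF2 kinases 1 neural tube call remained at 4 times and 3 at 2 times. With the GC content correction 2 members were higher in pancreas at 4 times, beside 10.7% of all genes. Of 672 differences of single members 586 moved by less than 1.5 times and 86 moved by more, 71 of these with equal totals. Of the members called at 2 times 0 changed sign. Only the GC content correction could have done this, since no rescaling moves a difference by more than 0.63. No paired analysis was possible because each tissue has 1 value per gene, and for the same reason no replicate could be left out.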
